A study of Mus musculus with 4 samples.

Results

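Cadherins and protocadherins are calcium-dependent adhesion molecules, and their genes were examined here in retinal RNA from mouse embryos at embryonic day 19. All genes whose symbol starts with Cdh and a digit, or with Pcdh, were taken, apart from Cdh23 and Pcdh15. This gave 87 genes of the 18471 in the count table. There were 18 classical cadherins (5 of type I and 13 of type II), 2 other numbered cadherins (Cdh13 and Cdh26), 57 clustered protocadherins (14 alpha, 21 beta and 22 gamma) and 10 non-clustered protocadherins. The study compared retinas labelled wild-type with retinas labelled Foxn3KO, which per the labels lack exon 3 of Foxn3, a forkhead transcription factor gene. The knockout strain is named C57BL/6NJ-Foxn3em1(IMPC)Bay/Mmnc, and the strain of the wild-type embryos is not given in the sources used here. Each group had 2 libraries, each from a separate embryo. The labels name no further allele or agent and no Cre driver, and they do not say which embryos shared a litter.

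Classical cadherins bind the same or a related cadherin on the neighbouring cell and connect through catenins to actin, which forms adherens junctions. Which cadherin a cell makes marks its tissue: E-cadherin (Cdh1) belongs to epithelia such as lens and surface ectoderm, P-cadherin (Cdh3) to epithelia that include the retinal pigment epithelium, and N-cadherin (Cdh2) to neuroepithelium and neurons. Clustered protocadherins are encoded by arrays of alternative first exons (alpha and gamma) or of separate genes (beta), of which each neuron uses a few. Their matching between membranes serves self-avoidance, and gamma protocadherins are known in the retina for amacrine cell arbors and neuron survival. The non-clustered protocadherins, mostly of the delta groups, are single genes with more restricted patterns in the nervous system.

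Total counts were between 22543531 and 29360129 per library. Foxn3 stood at 97.6 and 99.8 CPM (counts scaled to library size) in the libraries labelled wild-type and at 143.6 and 143.7 CPM in those labelled Foxn3KO, a log2 fold change of 0.54 (edgeR adjusted p = 7.8e-08). The targeted gene was thus higher in the group labelled as knockout. Counts per gene do not resolve exon 3, so every direction given here rests on the labels. Of the 12 retinal marker genes examined, all were detected, and their summed level was 3487 and 3654 CPM against 3587 and 3648 CPM. By edgeR, Six3 and Six6 were higher and Isl1 lower at an adjusted p under 0.05 (25%, against 21.9% of all genes tested). DESeq2 called Isl1 alone (adjusted p = 0.00766). Xist was at 3350 CPM in wild-type replicate 1 and at 0.402 to 0.652 CPM in the other libraries, so the sex of the embryos was not balanced between the groups. Wild-type replicate 1 had 0 counts for Ddx3y, Eif2s3y and Kdm5d, which are Y-linked.

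Levels of different genes were compared per transcript length, as FPKM (counts scaled by library size and gene length). N-cadherin had the highest level of all members, with a mean of 42.0 FPKM over the 4 libraries, and it supplied 18.4% to 19.4% of the FPKM summed over the 87 genes. The type II cadherins Cdh20 and Cdh11 followed at 21.5 and 17.9 FPKM, then R-cadherin (Cdh4) at 13.3 FPKM and Cdh24 at 10.7 FPKM. The highest protocadherin was Pcdhgc3, a gamma C-type isoform, at 7.29 FPKM. The highest non-clustered protocadherins were Pcdh17, Pcdh9 and Pcdh8, at 4.29, 4.001 and 3.94 FPKM. E-cadherin was at 1.19 FPKM, and VE-cadherin (Cdh5), the junctional cadherin of endothelium, at 0.202 FPKM. The 18 classical cadherins together made up 53.8% to 55.5% of the summed FPKM in the 4 libraries. The 57 clustered protocadherins made up 30.4% to 31.9%, and the 10 non-clustered protocadherins 13.4% to 13.6%. Lengths of alpha and gamma genes include exons shared within their array, so their FPKM and the clustered share may be too low. The median of the 87 members was 1.00 FPKM, against 4.59 FPKM for all 18471 genes.

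**Figure D1:**
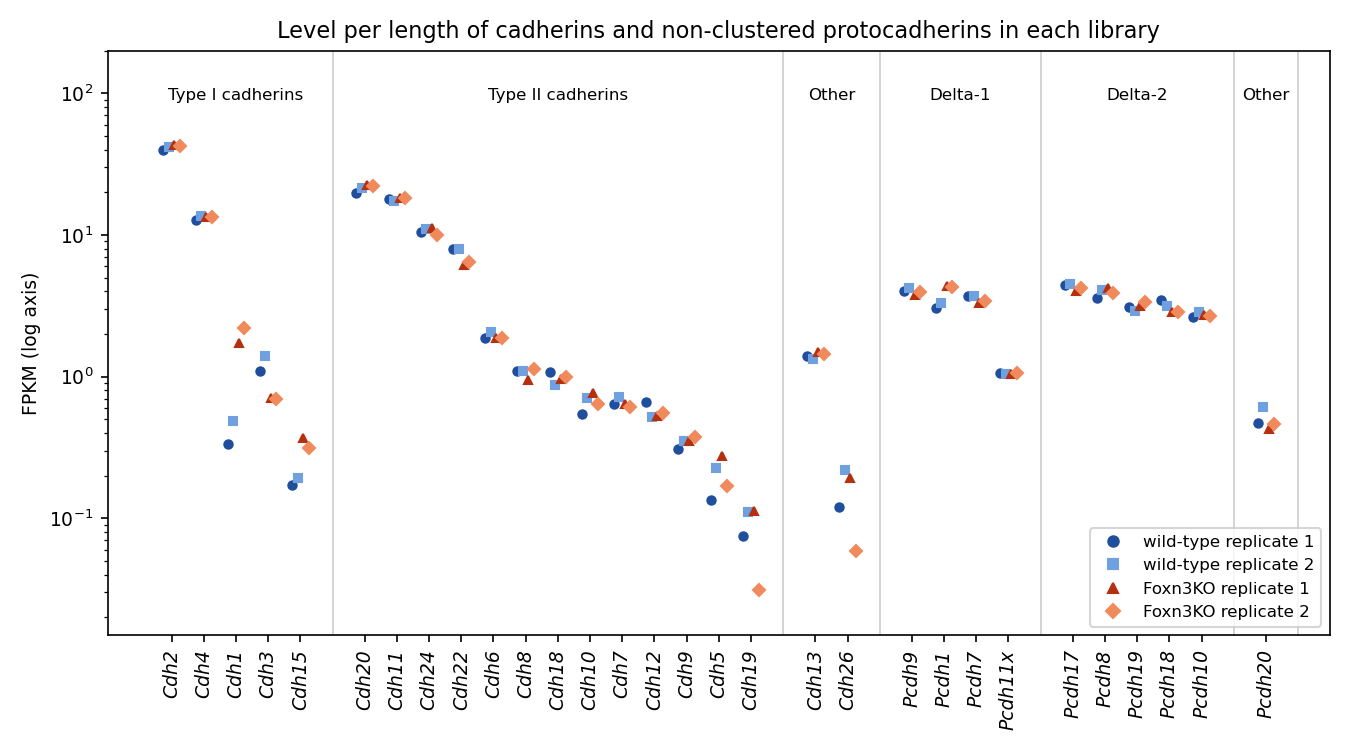
Level per length (FPKM, log axis) of each cadherin and non-clustered protocadherin, ordered within its subgroup by mean level, with a point for each of the 4 libraries. Cdh2 was highest in every library, Cdh1 and Cdh3 changed places between the groups, and most other genes had points that lay close together.

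Between the groups, 7 of the 85 members that passed the filter on low counts crossed the threshold (adjusted p under 0.05 by edgeR, adjusted over all 17300 genes tested). Cdh1 and Pcdh1 rose in the libraries labelled Foxn3KO, and Cdh3, Cdh22, Pcdhb11, Pcdhb16 and Pcdhb19 fell. The 7 were 8.24% of the members tested, where 21.9% of all genes tested were called. By direction, 2 members were higher and 5 lower, where 12.3% of all genes were called higher and 9.66% lower. The 2 members that failed the filter were Pcdha4, with 1 and 14 counts against 10 and 8, and Pcdha8, with 5 and 11 counts against 7 and 0. At an unadjusted p under 0.05 there were 17 members (20%, against 33.5% of all genes).

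The members were measured less precisely than the median gene. Their median standard error was 0.173 on the log2 scale against 0.0816 for all genes, and their median absolute log2 fold change was 0.17 against 0.15. Libraries of the 2 groups did not overlap in CPM for 48 members (56.5%), 24 above and 24 below wild-type, where 60.4% of all genes did not overlap. DESeq2 called 6 of the 7, all but Pcdhb11, with 14.1% of all genes called. The count depended on wild-type replicate 2: without it 16 of 85 members (18.8%) were called, 9 of them higher, where 28.6% of all genes were called. In that fit the only wild-type library is replicate 1, the one with Xist. These 16 included the 7 and added Cdh2, Cdh20, Pcdh18, Pcdha5, Pcdha10, Pcdhb8, Pcdhga3, Pcdhga11 and Pcdhga12. Without wild-type replicate 1, 7 members were called, where 24.3% of all genes were, with Pcdhgc3 in place of Pcdhb11.

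**Figure D2:**
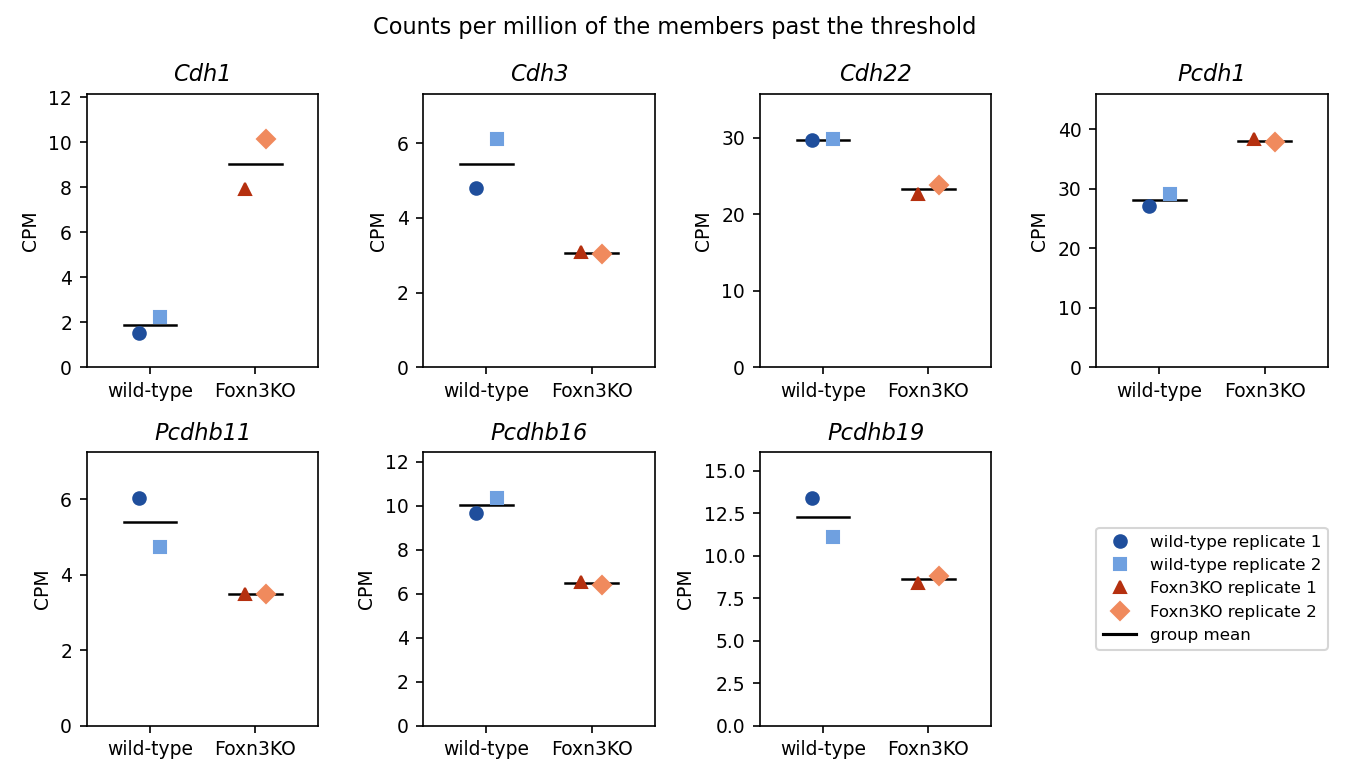
CPM in each library of the 7 members with an edgeR adjusted p under 0.05, each panel with its own axis from 0. Points are libraries and lines are group means of 2 libraries. In every panel both libraries labelled Foxn3KO lay on the same side of both wild-type libraries.

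Among the type I cadherins, E-cadherin (Cdh1, ENSMUSG00000000303, chromosome 8) changed most of all members. It had 38 and 61 counts in wild-type and 230 and 227 counts in Foxn3KO, or 1.53 and 2.25 CPM against 7.90 and 10.1 CPM. The groups did not overlap, and the lower Foxn3KO library was well above the higher wild-type library. Cdh1 rose 4.70-fold (95% interval 3.52 to 6.29), a log2 fold change of 2.23 (SE 0.198, edgeR adjusted p = 1.4e-07). It was the only member with a called log2 fold change of at least 1. In retina as whole tissue, more cells of a type and more RNA per cell cannot be told apart, and likewise for a fall.

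P-cadherin (Cdh3, ENSMUSG00000061048, chromosome 8) went the other way. It had 4.80 and 6.11 CPM in wild-type and 3.09 and 3.04 CPM in Foxn3KO, from 119, 166, 90 and 68 counts. The Foxn3KO libraries were nearly equal and both lay below wild-type. Cdh3 fell by 0.83 on the log2 scale (SE 0.184, edgeR adjusted p = 0.00304), to 0.561 of the wild-type level. Per length, Cdh3 was above Cdh1 in wild-type, at 1.24 ± 0.212 against 0.411 ± 0.110 FPKM (SD, n = 2). In Foxn3KO the order was the reverse, at 0.697 ± 0.00868 for Cdh3 against 1.97 ± 0.345 FPKM for Cdh1 (SD, n = 2). The 2 genes are neighbours on chromosome 8 in RefSeq GRCm38, with 0 protein-coding genes between them.

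Both genes mark tissues that border the retina, so markers of those tissues were summed in each library. Of 9 lens genes tested, 8 were higher by edgeR in the libraries labelled Foxn3KO. The other one, Prox1, which retina also expresses, was lower. DESeq2 called 3 of the 9, the genes Cryab, Bfsp1 and Mip, and gave Cryaa an adjusted p of 0.342. The other 8 lens genes, among them the crystallins Cryaa and Cryab, summed to 5.28 and 59.6 CPM in wild-type and 246 and 243 CPM in Foxn3KO. Between the wild-type libraries this sum differed 11.3-fold, while Cdh1 differed 1.47-fold. Crygs was at 0 in wild-type replicate 1. With Prox1 included, the 9 lens genes summed to 103 and 157 CPM in wild-type and 335 and 329 CPM in Foxn3KO.

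Markers of pigment cells, 7 genes in all, summed to 48.6 and 72.7 CPM in wild-type and 39.3 and 40.4 CPM in Foxn3KO. Pmel and Tyr, a pigment-granule protein and the key enzyme of melanin synthesis, fell by 0.84 and 0.87 on the log2 scale, with adjusted p of 0.000137 and 0.0282 by edgeR. DESeq2 gave them adjusted p of 0.0412 and 0.075. Wild-type replicate 2 was highest for both this sum and Cdh3. Surface and corneal epithelium markers, 5 genes that include Epcam, summed to 15.4 and 16.9 CPM in wild-type and 13.0 and 12.7 CPM in Foxn3KO, and of these Krt18 fell by edgeR, with an adjusted p of 0.102 in DESeq2. The part of lens, pigment and surface cells in the Cdh1 and Cdh3 differences was not tested.

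**Figure D3:**
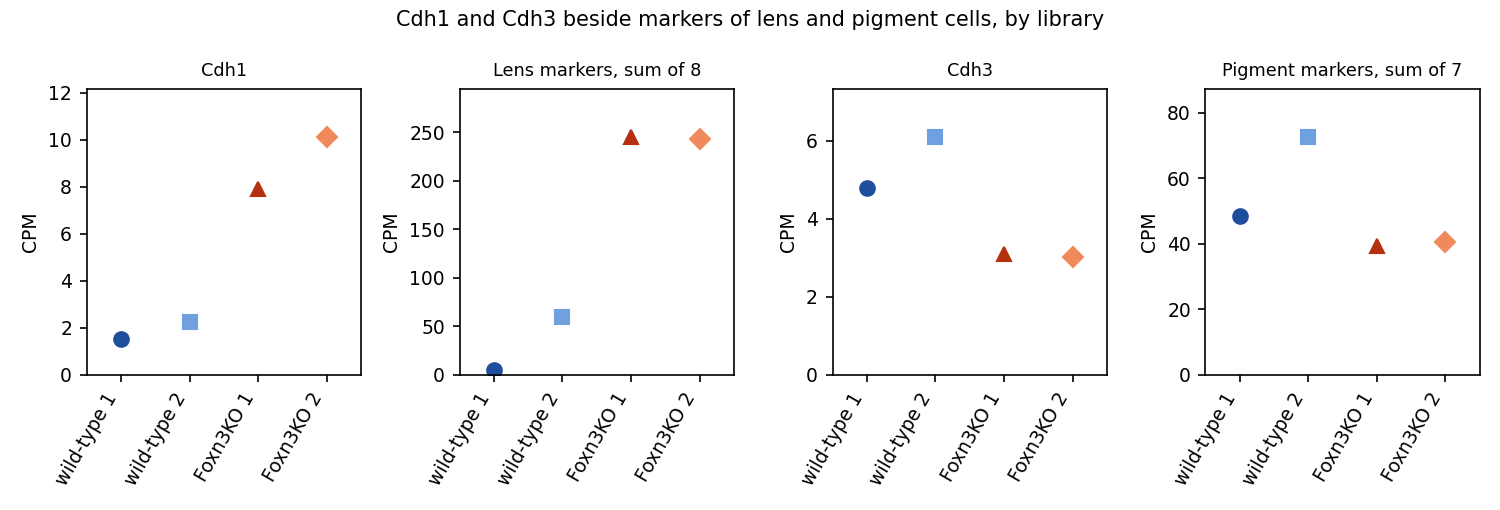
CPM in each of the 4 libraries for Cdh1, the sum of 8 lens markers (without Prox1), Cdh3 and the sum of 7 pigment cell markers. Cdh1 and the lens sum were both higher in the libraries labelled Foxn3KO, but the lens sum was 5.28 and 59.6 CPM in the wild-type libraries; Cdh3 and the pigment sum were both highest in wild-type replicate 2.

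The cadherins that dominate the tissue showed small differences. N-cadherin (Cdh2) had 325 and 337 CPM in wild-type and 350 and 346 CPM in Foxn3KO, with groups that did not overlap. Its log2 fold change was 0.07 (95% interval -0.02 to 0.16, edgeR adjusted p = 0.241), and it passed the threshold only without wild-type replicate 2 (0.10, edgeR adjusted p = 0.0132). Cdh4 (R-cadherin), named for its discovery in retina, had 93.8 and 98.5 CPM against 97.6 and 96.8 CPM. Its log2 fold change of 0.02 (95% interval -0.09 to 0.12, edgeR adjusted p = 0.855) had the opposite sign under total count scaling. The last type I gene, Cdh15 (M-cadherin of muscle), had 14 and 17 counts against 35 and 23 counts, a log2 fold change of 0.91 (95% interval 0.12 to 1.70, edgeR adjusted p = 0.0959). The 5 skeletal muscle markers in the table summed to 11.8 and 10.8 CPM against 9.82 and 9.96 CPM. Of these 5, only Des was called by edgeR, as lower (20%, against 21.9% of all genes), and DESeq2 gave it no adjusted p. The part of muscle cells in the Cdh15 values was not tested.

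Of the 13 type II cadherins, 1 was called (7.69%, against 21.9% of all genes). Cdh22, expressed in brain, had 29.7 and 29.8 CPM in wild-type and 22.7 and 23.8 CPM in Foxn3KO, from 736, 810, 660 and 533 counts. Replicates were close and the groups were separate. Cdh22 fell by 0.36 on the log2 scale (SE 0.073, edgeR adjusted p = 0.00169), to 0.781 of the wild-type level.

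The most abundant type II genes did not pass. Cdh20 had 80.2 and 86.1 CPM against 90.7 and 89.1 CPM, a log2 fold change of 0.11 (95% interval 0.00 to 0.22, edgeR adjusted p = 0.141). It passed without wild-type replicate 2 (0.17, edgeR adjusted p = 0.00717). Cdh11, also known from mesenchyme and bone, had 161 and 155 CPM against 162 and 162 CPM, a log2 fold change of 0.03 (95% interval -0.06 to 0.13). Cdh5 had 14 and 26 counts against 34 and 16 counts, and its log2 fold change of 0.33 (95% interval -0.52 to 1.18) changed sign when Foxn3KO replicate 1 was left out (-0.10). Of 9 endothelial markers, Kdr alone, which neural retina also expresses, had 359 and 373 CPM against 354 and 347 CPM. The other 8 summed to 29.4 and 28.2 CPM in wild-type and 30.9 and 28.9 CPM in Foxn3KO, so the groups overlapped. Among these 8, Cldn5 had 19.5 and 17.7 CPM against 17.6 and 16.9 CPM, and Pecam1 and Tek rose by edgeR. DESeq2 gave Pecam1 an adjusted p of 0.0873 and gave Tek none. The part of endothelial cells in the Cdh5 values was not tested.

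Cdh6, Cdh8 and Cdh9 are known for the wiring of retinal ganglion and bipolar cells. Cdh6 had 16.9 and 18.8 CPM against 16.9 and 16.8 CPM, a log2 fold change of -0.08 (95% interval -0.28 to 0.11). Cdh8 had 8.47 and 8.502 CPM against 7.35 and 8.75 CPM, a log2 fold change of -0.08 (95% interval -0.36 to 0.19). Cdh9 had 1.09 and 1.25 CPM against 1.24 and 1.34 CPM, for a log2 fold change of 0.13 and an interval from -0.52 to 0.78. For these 3 genes 0 lay within the interval. The remaining 6 type II genes, Cdh7, Cdh10, Cdh12, Cdh18, Cdh19 and Cdh24, had log2 fold changes from -0.29 (Cdh19) to 0.17 (Cdh10) and were not called. The median log2 fold change was 0.07 over the 5 type I genes and -0.03 over the 13 type II genes, against -0.00470 over all genes.

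Outside types I and II, Cdh13 is a cadherin held by a lipid anchor in place of a transmembrane segment. It had 15.9 and 15.1 CPM in wild-type and 16.8 and 16.4 CPM in Foxn3KO, a log2 fold change of 0.10 (95% interval -0.09 to 0.29, edgeR adjusted p = 0.475). Cdh26 had only 9 and 18 counts against 17 and 4 counts, and its log2 fold change of -0.35 had an interval from -1.55 to 0.85.

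**Figure D4:**
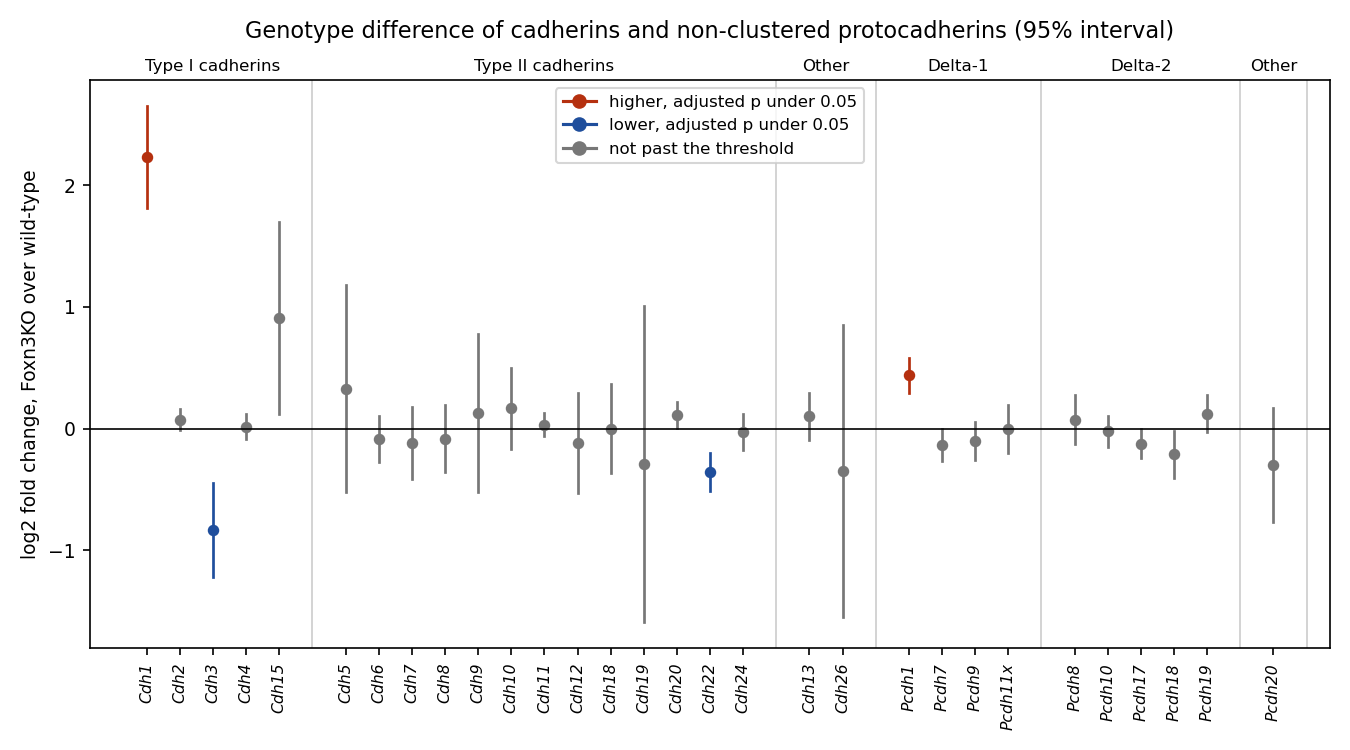
Log2 fold change (Foxn3KO over wild-type) of each cadherin and non-clustered protocadherin, with its 95% interval from edgeR; colour marks an adjusted p under 0.05. Cdh1 stood far above 0 at 2.23, Pcdh1 was also called higher, and Cdh3 and Cdh22 were called lower.

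Of the 10 non-clustered protocadherins, 1 was called (10%, against 21.9% of all genes). Pcdh1, a delta-1 protocadherin known from airway epithelium and brain, had 27.1 and 29.2 CPM in wild-type and 38.4 and 37.8 CPM in Foxn3KO, from 671, 793, 1117 and 847 counts. The groups were separated by more than the spread within either. Pcdh1 rose 1.35-fold, a log2 fold change of 0.44 (SE 0.0686, 95% interval 0.29 to 0.58, edgeR adjusted p = 0.000138).

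The other delta-1 genes showed smaller differences. Pcdh9 had 27.5 and 28.8 CPM against 25.6 and 27.0 CPM, a log2 fold change of -0.10 (edgeR adjusted p = 0.373). Pcdh7 had 39.5 and 39.2 CPM against 35.3 and 36.4 CPM, a log2 fold change of -0.13 (edgeR adjusted p = 0.148). Both sets of Foxn3KO libraries lay below wild-type, but neither gene passed. Pcdh11x, which is X-linked, had 14.7 and 14.5 CPM against 14.4 and 14.7 CPM, for a log2 fold change of -0.00 and an interval from -0.20 to 0.20.

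Among the 5 delta-2 genes, edgeR and DESeq2 called none, where 21.9% and 14.1% of all genes were called. Of the 5, 2 had an unadjusted p under 0.05 by edgeR (40%, against 33.5% of all genes). Pcdh17, a synaptic protocadherin of this group, had 58.3 and 58.5 CPM against 52.0 and 55.1 CPM, a log2 fold change of -0.13 (edgeR adjusted p = 0.130). Pcdh8, known from neuronal activity and early mesoderm, had 16.25 and 18.7 CPM against 19.2 and 17.6 CPM, a log2 fold change of 0.07 (edgeR adjusted p = 0.629). Pcdh18 had 18.7 and 17.04 CPM against 15.5 and 15.4 CPM, a log2 fold change of -0.21 (edgeR adjusted p = 0.111), and it passed without wild-type replicate 2. Pcdh19, the X-linked gene of an epilepsy syndrome, had 32.7 and 30.3 CPM against 33.2 and 35.5 CPM, a log2 fold change of 0.12 (edgeR adjusted p = 0.236). For both X-linked genes, the Xist-positive wild-type replicate 1 was slightly above wild-type replicate 2. Pcdh10 and Pcdh20, the last of these 10, had log2 fold changes of -0.02 and -0.30, with edgeR adjusted p of 0.836 and 0.376. The summed level of the 10 genes was 279.5 and 285.0 CPM against 279.5 and 284.7 CPM, a difference smaller than the spread within either group.

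The clustered protocadherins lie on chromosome 18 as adjacent alpha, beta and gamma arrays. An alpha or gamma transcript joins its own variable first exon to constant exons that all members of that array share, while beta transcripts have no constant exons. In the GENCODE annotation of GRCm38, 28.5% to 54.9% of the exon bases of the 13 alpha genes matched by name were shared with another alpha gene, and 27.8% to 66.8% for the 22 gamma genes. Of the 21 beta genes, 2 shared bases with another, Pcdhb21 and Pcdhb22. The gene lengths implied by the FPKM values were a median of 1.003 times these exon bases in each array, so shared exons counted in the length. Pcdha8 had 0 counts in Foxn3KO replicate 2, where the alpha genes summed to 826 counts. Reads in shared exons were thus not counted in full for each alpha gene, though the lengths include these exons. FPKM of alpha genes may therefore be too low beside genes without shared exons. For gamma genes the treatment of such reads is not given, and values per alpha and gamma gene are uncertain. Only shared positions were compared, so reads whose sequence matches several beta genes were not examined.

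None of the 12 alpha genes tested was called by edgeR, where 21.9% of all genes were, and DESeq2 called none either. Of the 12, 2 had an unadjusted p under 0.05 by edgeR (16.7%, against 33.5% of all genes). The fitted log2 fold changes of the 12 were above 0 in 9 and below 0 in 3, with a median of 0.27. This median was 0.09 without wild-type replicate 1 and 0.17 when every library had to reach 10 counts. Levels per length were low, and the shared exons in the length may lower them further. The most abundant, Pcdhac2, known for the tiling of serotonergic axons, was at 1.72 FPKM. It had 10.9 and 10.5 CPM against 8.38 and 10.9 CPM, so the groups overlapped. The largest fitted difference was that of Pcdha5, with 1.29 and 2.39 CPM against 2.78 and 3.04 CPM, a log2 fold change of 0.64 (95% interval 0.08 to 1.197, edgeR adjusted p = 0.0979).

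In the beta array, 18 of 21 genes had a fitted log2 fold change below 0 (85.7%, against 50.9% of all genes), with a median of -0.20 over the 21. The median was between -0.23 and -0.16 when each library was left out in turn. In 12 of the 21 both Foxn3KO libraries lay below both wild-type libraries, and in 1, Pcdhb3, they lay above. Of all genes, 30.5% had the Foxn3KO libraries below. Counting both directions, 61.9% of the beta genes had groups that did not overlap, near the 60.4% of all genes. The summed level of the array was 154.8 and 146.8 CPM in wild-type and 129.8 and 130.7 CPM in Foxn3KO. The sums did not overlap between the groups. The 3 called members (14.3% of the array, against 21.9% of all genes) were all lower.

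Pcdhb16 (ENSMUSG00000047910) had 9.68 and 10.4 CPM in wild-type and 6.56 and 6.39 CPM in Foxn3KO, from 240, 282, 191 and 143 counts. It fell by 0.63 on the log2 scale (SE 0.126, edgeR adjusted p = 0.00134), to 0.646 of the wild-type level. Pcdhb19 had 13.4 and 11.1 CPM against 8.38 and 8.84 CPM. This was a fall to 0.702 of the wild-type level, a log2 fold change of -0.51 (SE 0.121, edgeR adjusted p = 0.00536). In both genes the difference between group means was larger than that between replicates, and both were called in each fit that left out 1 library.

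Pcdhb11 had 6.05 and 4.75 CPM in wild-type and 3.503 and 3.48 CPM in Foxn3KO, a log2 fold change of -0.62 (SE 0.179, edgeR adjusted p = 0.0183). This call was the least firm of the 7. It was lost without wild-type replicate 1 (edgeR adjusted p = 0.138), without Foxn3KO replicate 1 (0.0569), without Foxn3KO replicate 2 (0.0522) and in DESeq2 (adjusted p = 0.096). The authors' deposited table gives Pcdhb11 an adjusted p of 0.0932, and gives Pcdhb16 and Pcdhb19 0.00886 and 0.0283.

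The beta genes with the highest levels per length were Pcdhb17 and Pcdhb20. Pcdhb17 had 20.4 and 21.2 CPM against 17.8 and 18.7 CPM, a log2 fold change of -0.19 (edgeR adjusted p = 0.114). Pcdhb20 had 14.0 and 13.5 CPM against 12.3 and 12.5 CPM, a log2 fold change of -0.15 (edgeR adjusted p = 0.313). In both, the Foxn3KO libraries lay below wild-type without passing. Pcdhb18 came closest to the threshold, with 9.44 and 10.1 CPM against 7.97 and 7.68 CPM and a log2 fold change of -0.32 (edgeR adjusted p = 0.0709). Pcdhb22, by contrast, had 15.8 and 14.8 CPM against 16.3 and 15.2 CPM, for a log2 fold change of 0.04 and an interval from -0.16 to 0.24.

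None of the 22 gamma genes was called by edgeR or by DESeq2, where 21.9% and 14.1% of all genes were. Among the 22, 1 had an unadjusted p under 0.05 by edgeR (4.55%, against 33.5% of all genes). That gene was Pcdhgc3, the most abundant clustered protocadherin, which is known for dendrite branching in cortical neurons. It had 39.6 and 45.6 CPM in wild-type and 38.7 and 37.1 CPM in Foxn3KO, a log2 fold change of -0.17 (95% interval -0.32 to -0.02, edgeR adjusted p = 0.106). It passed without wild-type replicate 1 (-0.26, edgeR adjusted p = 0.00116). Pcdhgc4, the gamma isoform known for neuron survival, had 9.32 and 10.7 CPM against 11.1 and 12.1 CPM, a log2 fold change of 0.21 (95% interval -0.04 to 0.45, edgeR adjusted p = 0.225).

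Over the array, 15 gamma genes had a fitted log2 fold change above 0 and 7 below, from -0.28 (Pcdhgb7) to 0.37 (Pcdhga6). Their median was 0.13, and 0.04 without wild-type replicate 1. The summed level was 147.8 and 167.9 CPM in wild-type and 163.8 and 162.9 CPM in Foxn3KO, so the Foxn3KO libraries lay between the wild-type libraries. Summed over all 57 clustered genes, the level was 334.9 and 349.2 CPM against 329.0 and 330.5 CPM. The median log2 fold change over the 55 tested was -0.0157. It turned positive when wild-type replicate 1 (0.0204), wild-type replicate 2 (0.0450) or Foxn3KO replicate 2 (0.0275) was left out, so it gives no direction for the clustered genes as a whole. Without wild-type replicate 2 more clustered genes were called, as were more of all genes.

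**Figure D5:**
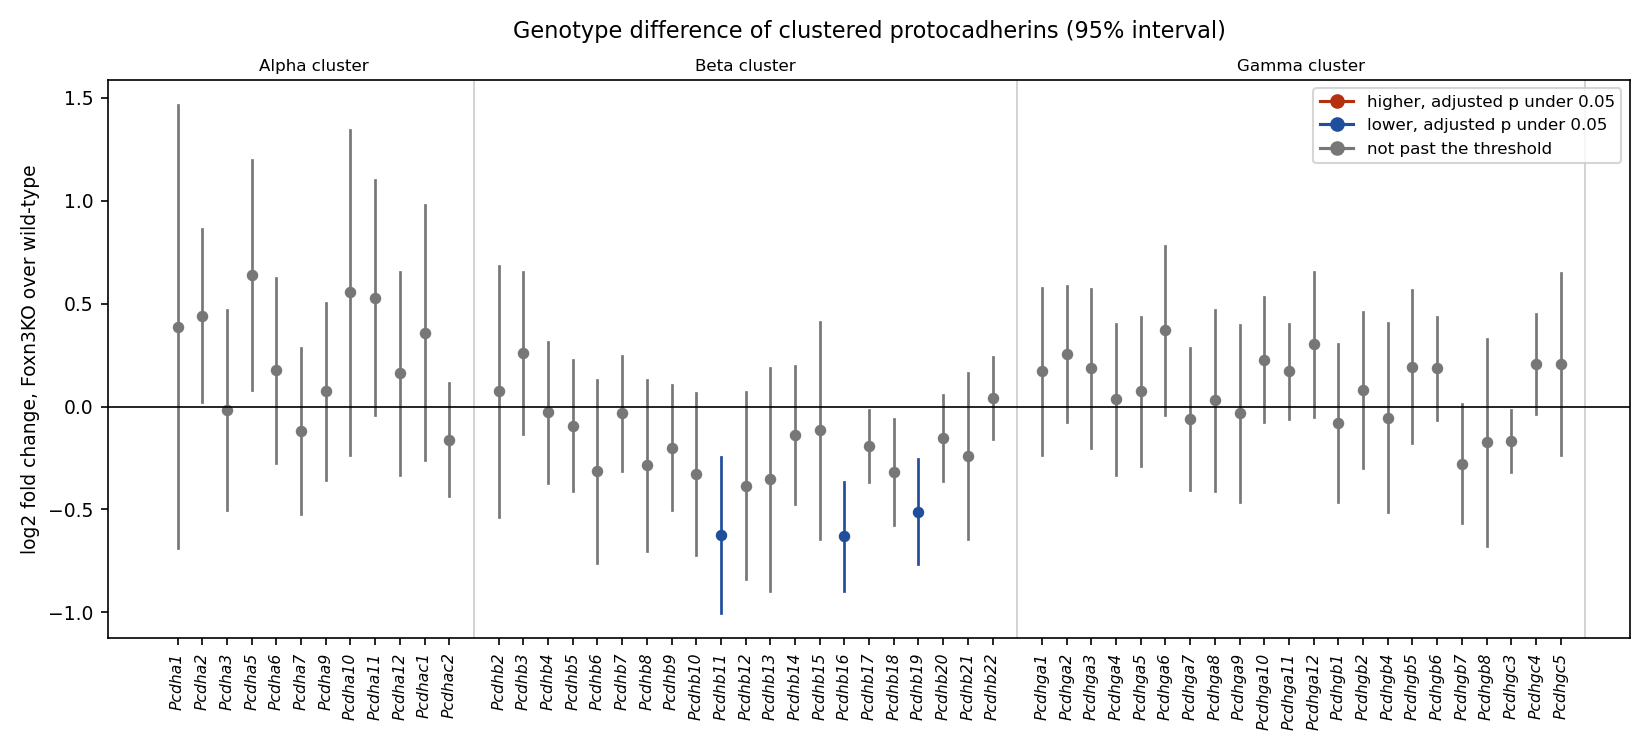
Log2 fold change (Foxn3KO over wild-type) of each tested clustered protocadherin, with its 95% interval from edgeR, in the order alpha, beta, gamma; colour marks an adjusted p under 0.05. Points of 18 of 21 beta genes lay below 0, with Pcdhb11, Pcdhb16 and Pcdhb19 called lower, while 9 of 12 alpha and 15 of 22 gamma genes lay above 0 with none called.

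The genes that work with cadherins were examined as lists. Of 17 catenins and linker genes tested, 3 were higher and 0 lower by edgeR, so 17.6% were called, where 21.9% of all genes were (12.3% higher). Arvcf, a p120-family catenin that binds the juxtamembrane part of cadherins, rose from 135.7 and 143.0 CPM to 177 and 183 CPM, a log2 fold change of 0.37 (edgeR adjusted p = 1.1e-05). The neural alpha catenin Ctnna2 rose by 0.29 and the neural p120-family catenin Ctnnd2 by 0.27 (edgeR adjusted p = 0.00025 and 0.000561). Beta catenin (Ctnnb1) had 1079 and 1089 CPM against 1083 and 1067 CPM, a log2 fold change of -0.01 (95% interval -0.09 to 0.07). The list's median log2 fold change was 0.06. The 2 desmosomal cadherins tested, Dsc2 and Dsg2, were each at most 1.12 CPM; 0 were called by edgeR and 0 had an unadjusted p under 0.05, and DESeq2 gave an adjusted p for 1 of them and did not call it.

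Of 15 large and other cadherin-superfamily genes tested, 3 were higher and 2 lower (33.3% called, against 21.9% of all genes). Celsr1, a seven-pass cadherin of planar cell polarity, rose from 14.4 and 13.7 CPM to 28.5 and 31.0 CPM, a log2 fold change of 1.08 (edgeR adjusted p = 1.94e-08). Fat3, a giant cadherin known for amacrine cell shape in retina, fell from 149.9 and 156.3 CPM to 131.1 and 125.6 CPM, a log2 fold change of -0.25 (edgeR adjusted p = 0.000667). Cdhr1, a photoreceptor cadherin, had a log2 rise of 0.19 (edgeR adjusted p = 0.00836). The others called were Clstn1, higher, and Celsr3, lower.

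Of 13 regulators of clustered protocadherin promoter choice, 1 was called (7.69%, against 21.9% of all genes). The cohesin subunit gene Stag2 had 286.8 and 259.5 CPM in wild-type and 231.4 and 223.7 CPM in Foxn3KO, and had a log2 fold change of -0.26 (edgeR adjusted p = 0.000693). Ctcf, which encodes the architectural protein bound at these promoters, had 216 and 222 CPM against 228 and 222 CPM, a log2 fold change of 0.04 (95% interval -0.05 to 0.13). Stag2 is X-linked, and wild-type replicate 1, the library with Xist, had the highest level.

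Transcription factors that act on Cdh1 in epithelial-mesenchymal transitions gave 0 calls among 4 tested by edgeR and 0 by DESeq2, and 1 of them, Zeb2, had an unadjusted p under 0.05. The repressor Zeb1 had 84.3 and 80.3 CPM against 85.5 and 85.8 CPM, a log2 fold change of 0.06. Its relative Zeb2 had 158 and 164 CPM against 149 and 146 CPM, a log2 fold change of -0.12 (edgeR adjusted p = 0.0594). Over these 5 lists 9 of 51 genes (17.6%) were called, 6 of them higher, where 21.9% of all genes were called. With total count scaling 11 were called (21.6%, against 23.0% of all genes), 6 of them higher. Without wild-type replicate 1 the count was 16 (30.8%, against 24.3%), and without wild-type replicate 2 it was 17 (33.3%, against 28.6%).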

How the data were processed

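Retinal RNA of 4 individual embryos (2 wild-type, 2 Foxn3KO) was sequenced from libraries made with a directional kit and adaptors carrying molecular identifiers, per the labels' protocols. The authors deposited whole-number counts per gene and library without normalization in 1 table of 18472 rows. The table's FPKM values, deposited by the authors, equalled these counts over library size and gene length, and were used for levels per length. Its mean signal per gene over libraries, deposited by the authors, was not used for any value. The authors' deposited log2 fold changes were not used for any value, and some of the adjusted p-values deposited by the authors are quoted. The submitters' processing notes name DESeq2 and mm39. Aligner, counter, annotation, and use of strand and identifiers are not given in the sources used here. The smallest summed count was 16.

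A repeated identifier (1) was dropped, leaving 18471 genes. After filterByExpr, 17300 genes were tested with edgeR 4.0.16 in R 4.3.3: TMM scaling, a two-sided quasi-likelihood F test with no term besides genotype, Benjamini-Hochberg adjustment over all tested genes, threshold 0.05. SE and 95% intervals came from the F statistic and its degrees of freedom. On simulated data of 17300 genes, the changed genes were drawn from those with at least 100 counts summed over libraries. The fit for this comparison called 89% of 100 genes changed by a log2 of 1 and 93% of 100 changed by 1.5. It also called 17 unchanged genes. Recovery of smaller changes, or of changed genes with fewer counts, was not simulated. Alternatives were RLE and total count scaling, no filter, at least 10 counts per library, the earlier edgeR fit, voom in limma 3.58.1, DESeq2 1.42.0, an adjusted p under 0.1, a log2 fold change of at least 1, a replicate term, and leaving out each library. Leaving out a library leaves 1 in its group, which is then assumed to vary like the other group.

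Values are named for every called member, for Cdh1, Cdh2, Cdh3, Cdh4, Cdh5 and Cdh11, for the 3 members with the highest FPKM per class, and for up to 3 called genes per list of related genes; other members were named to describe their subgroup. The members and lists were chosen with earlier results of these data known. Chromosomes and shared exons are from GRCm38 (RefSeq and GENCODE), which is not the build named in the notes, so no coordinates are given.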

Additional observations from a re-analysis of the deposited data

How the results depend on the processing

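Cdh1, Cdh3, Cdh22, Pcdh1, Pcdhb16 and Pcdhb19 were called at an adjusted p under 0.05 in every fit run, including each that left out 1 library. A minimum log2 fold change of 1 left 1 member (1 classical, 0 clustered, 0 non-clustered) and 1 related gene. These were 1.18% of members and 1.96% of related genes tested, against 3.28% of all genes. An adjusted p under 0.1 gave 5 clustered genes, where 28.5% of all genes were called. Leaving out each library in turn gave 6 to 16 members, 3 to 5 classical, 2 to 9 clustered and 1 to 2 non-clustered genes, and 6 to 17 related genes. Median log2 fold changes then ranged from 0.0116 to 0.0447 (classical), -0.00928 to 0.0450 (clustered), -0.0979 to -0.0410 (non-clustered) and -0.714 to 0.147 (Cdh13 and Cdh26). Total count scaling moved the clustered median to -0.0363 and that of all genes to -0.0251. Signs turned for Cdh4 with total count scaling (-0.00415) and on leaving out a library, with ranges of -0.0165 to 0.0527 (Cdh4), -0.102 to 0.776 (Cdh5), -0.0161 to 0.188 (Pcdh8) and -1.51 to 0.172 (Cdh26). The cause was not tested.

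Replicate numbers showed no sign of pairing: replicate differences correlated at -0.00825 over 17300 genes and -0.263 over 85 members. Such a correlation cannot settle whether samples were paired, and the labels do not say. With the replicate number as a block, 7 members (8.24%) and 13 related genes (25.5%) were called, against 24.4% of all genes.

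With 2 libraries per group, members of low level have wide intervals. A limit of 3 counts was 0.103 to 0.134 CPM per library, for counting error only, since the handling of duplicate reads is not given in the sources used here.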

Other observations

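Some clustered protocadherins varied between replicates. Of the 74 members with a mean of at least 50 counts, 3 differed more than 1.5-fold within wild-type and 2 within Foxn3KO. All of these were clustered genes, as were most of the 74. The share of all genes with such differences was not computed. In wild-type, Pcdha5 was at 1.29 and 2.39 CPM (1.85-fold), Pcdhga3 at 5.77 and 9.75 CPM (1.69-fold) and Pcdhga12 at 5.61 and 8.76 CPM (1.56-fold), each higher in replicate 2. In Foxn3KO, Pcdhb6 was at 2.54 and 3.88 CPM and Pcdhb15 at 2.85 and 1.74 CPM.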
